A study of Mus musculus with 4 samples.

Results

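Group 2 innate lymphoid cells (ILC2) made up 504 of the 21249 ChAT-eGFP+ cells kept from mouse inguinal white adipose tissue. The cells came from the stromal vascular fraction, which is what is left of digested fat once the adipocytes are removed, and were profiled by 3′ single-cell RNA sequencing in 4 libraries. Each library pooled sorted cells of 4 male ChATBAC-eGFP mice, which were 5 weeks old at the start, spent 3 weeks at 30 °C (thermoneutrality for a mouse) and were about 8 weeks old at harvest. In libraries 30C_1 and 30C_2 the mice stayed at 30 °C, and in libraries 4C_1 and 4C_2 they received an acute cold challenge of 4 h at 4 °C after a day at room temperature, so that the step through room temperature and the cold itself cannot be told apart. All mice carried the same transgene, a bacterial artificial chromosome in which Chat regulatory sequence drives eGFP, and live eGFP+ singlets were sorted. The sort therefore read the reporter and not the Chat transcript, and the ILC2 described here are those within that gate.

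ILC2 are lymphocytes that lack antigen receptors and respond instead to alarmins, the cytokines that damaged or stressed tissue releases, such as IL-33 (receptor Il1rl1) and IL-25 (receptor Il17rb). They depend on the transcription factor Gata3 and on IL-7, and secrete IL-5 and IL-13, cytokines that sustain eosinophils and alternatively activated macrophages in adipose tissue. Neuropeptides, catecholamines, lipid mediators and glucocorticoids are known to act on them, and some ILC2 make acetylcholine through Chat, the choline acetyltransferase.

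Members were chosen by measured transcripts. A cell was counted as an ILC2 when it had more than 200 and fewer than 5000 genes, less than 7.5% mitochondrial unique molecular identifiers (UMIs, which count single captured RNA molecules), at least 1 UMI of Gata3, at least 1 of Il13, Il17rb, Il1rl1 or Il5, and none of Cd3e, Cd3d, Cd79a, Ms4a1, C1qa, Foxp3 and Top2a. The positive side of the rule alone was met by 2124 cells, of which 1025 had a UMI of Cd3e, 1111 of Cd3d and 724 of Foxp3. Libraries 30C_1, 30C_2, 4C_1 and 4C_2 held 110, 115, 172 and 107 ILC2, with 808444, 838394, 1349249 and 869665 UMIs in all. The median ILC2 had 6912, 6789, 7212 and 8025 UMIs in these libraries, so ILC2 of 4C_2 were the most deeply read. No cell barcode was shared between libraries among ILC2 (5 to 14 for each pair of libraries among all cells kept), and the doublet caller Scrublet marked 1 of the 504 cells.

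The genes that chose the cells already differed between temperatures, and these values are given as a description with no test. Il13 was found in 43.6% and 50.4% of ILC2 at 30 °C and in 83.7% and 86.9% at 4 °C, at 234, 185, 749 and 915 counts per 1000000 UMIs of ILC2 (CPM). Il17rb was found in 71.8%, 62.6%, 48.8% and 47.7% of cells, and Il1rl1 in 28.2%, 23.5%, 15.7% and 14.0%. Il5 was rare, at 5.45%, 4.35%, 9.88% and 15.9%, and Gata3 stood at 401, 395, 389 and 413 CPM. Among cells that should lack it, Il13 was found in 0.844% of B cells and in none of 79 cells with stromal genes. By library the B cell share was 0.510%, 0.437%, 1.10% and 1.31%, so it was also higher at 4 °C. The part of this background in the choice of cells was not tested. For Il13, Il17rb, Il1rl1 and Il5 the libraries of one temperature did not overlap those of the other, whereas for Gata3 they did. Cells that met the rule only through a cytokine, Il13 or Il5, numbered 17 of 110, 28 of 115, 75 of 172 and 47 of 107, which is 15.5%, 24.3%, 43.6% and 43.9%. The route of entry thus moved with temperature, and its part in the differences below was not tested, but calls with cells chosen by Il17rb or Il1rl1 alone are given beside the main count.

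**Figure D1:**
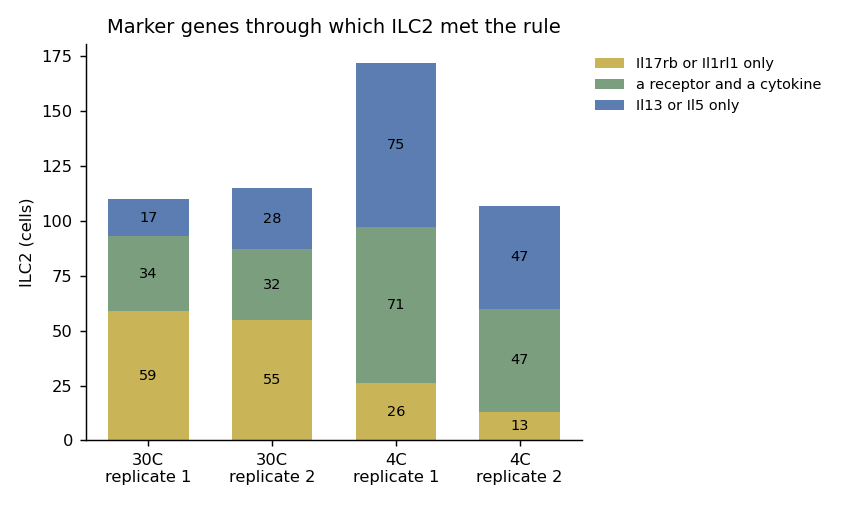
Stacked bars give the number of ILC2 in each library by the markers through which a cell met the rule: a cytokine (Il13 or Il5) only, a receptor (Il17rb or Il1rl1) only, or both. Cells with a cytokine only went from 17 and 28 at 30 °C to 75 and 47 at 4 °C, and cells with a receptor only from 59 and 55 to 26 and 13.

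Proximal promoters are shown for 4 genes that the results turn on: Il13, which chose many of the cells; Areg; and Klf9 and Txnip, which fell together. Each is the 250 bases before the annotated start in RefSeq for GRCm38, on the gene's own strand, and capitals mark 1 motif in each. These are AGATAA, which zinc-finger factors such as Gata3 bind, in Il13, the cAMP response element TGACGTCA in Areg, and the forkhead site GTAAACA in Klf9 and Txnip.
Il13 (chr11:53634703-53634952, minus strand): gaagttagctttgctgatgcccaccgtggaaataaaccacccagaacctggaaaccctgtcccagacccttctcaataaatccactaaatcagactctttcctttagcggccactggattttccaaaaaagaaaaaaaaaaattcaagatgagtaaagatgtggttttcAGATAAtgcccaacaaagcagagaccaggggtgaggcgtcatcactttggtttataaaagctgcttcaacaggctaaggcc
Areg (chr5:91139349-91139598, plus strand): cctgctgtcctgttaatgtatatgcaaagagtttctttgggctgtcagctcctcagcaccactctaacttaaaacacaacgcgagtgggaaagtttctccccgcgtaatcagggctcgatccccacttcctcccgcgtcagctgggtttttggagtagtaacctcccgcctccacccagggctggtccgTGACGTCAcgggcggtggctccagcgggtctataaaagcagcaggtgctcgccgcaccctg
Klf9 (chr19:23140976-23141225, plus strand): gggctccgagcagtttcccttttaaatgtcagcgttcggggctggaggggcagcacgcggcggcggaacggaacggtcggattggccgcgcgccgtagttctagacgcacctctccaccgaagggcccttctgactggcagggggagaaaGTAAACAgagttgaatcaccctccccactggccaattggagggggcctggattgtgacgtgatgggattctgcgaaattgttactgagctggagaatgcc
Txnip (chr3:96557707-96557956, plus strand): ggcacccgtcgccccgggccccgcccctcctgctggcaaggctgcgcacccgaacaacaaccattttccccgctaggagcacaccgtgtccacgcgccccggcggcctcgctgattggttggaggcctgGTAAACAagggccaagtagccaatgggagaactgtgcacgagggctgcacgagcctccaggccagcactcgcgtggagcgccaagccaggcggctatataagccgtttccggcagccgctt

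For the shares that follow, promoters ran from 250 bases before the start to 50 after it, longer than the stretches shown. Read on both strands, AGATAA was held by 11.2% of the 32851 RefSeq promoters, TGACGTCA by 1.79% and GTAAACA by 3.65%. Among genes tested in ILC2 and matched to a promoter, GTAAACA was held by 3.15% of all, by 10 of 138 (7.25%) of those lower at 4 °C and by 3 of 124 (2.42%) of those higher. TGACGTCA was held by 3.83% of all, 4.84% of those higher and 0.725% of those lower. AGATAA was held by 7.5% of all, 6.45% of those higher and 7.97% of those lower. Also searched were the glucocorticoid receptor core site AGAACA (13.7%, 18.5% and 18.1%), its palindrome (in none of the called genes) and the AP-1 site TGANTCA (5.5%, 7.26% and 7.25%). A match is a description of letters and not a bound site.

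The label was checked against markers that the rule did not use. Ccr10, a skin and mucosal homing receptor, was found in 81.9% of ILC2, against 12.7% of T cells without Foxp3, 11.5% of Foxp3 T cells and 1.52% of B cells of the same libraries. Id2, the repressor on which innate lymphoid cells depend, was found in 99.6% of ILC2, Il7r in 99.4%, Rora in 85.9%, Cxcr6 in 86.9% and Crlf2, the receptor chain for the alarmin TSLP, in 46.6%. Klrg1 (5.95%) and Hs3st1 (0.198%), which mark ILC2 in other settings, were scarce. The ILC2 marker list, whose 22 genes include the 5 of the rule and so give no check by their sum, summed to 6467, 6194, 6950 and 7253 CPM in the 4 libraries, with Id2 its most abundant gene.

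T cell genes were mixed in these cells. Of the co-receptor genes in the T cell list, Cd5 was found in 1.59%, Cd28 in 2.38% and Cd4 in 0.397% of ILC2, against 57.1%, 71.7% and 52.8% of T cells without Foxp3. Yet Cd3g was found in 73.0% of ILC2, Trbc1 in 85.9%, Trbc2 in 89.5%, Trac in 24.8% and the delta variable segment Trdv4 in 30.2%, against 5.76% of T cells for Trdv4. The 14 genes of the T cell list had a UMI in ILC2, and summed to 1585, 1458, 1892 and 1895 CPM (Trbc2 the most abundant), where T cells without Foxp3 had 6722 to 7527 CPM. The cells are thus called ILC2 by their rule, by Ccr10 and by the scarcity of Cd4, Cd5 and Cd28, while T cell receptor transcripts were present in most of them.

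Genes of other innate lymphocytes were present in part. Of the ILC1 and NK list, Eomes, Ncr1 and Ifng were at 0, while Klrk1, its most abundant gene, was found in 51.8% of ILC2, and the list summed to 116, 146, 151 and 139 CPM against 156 to 221 CPM in T cells without Foxp3. Of the ILC3 and IL-17 list Il23r and Il22 were at 0, while Ccr6 was found in 64.7% of ILC2, and the list summed to 161, 169, 222 and 231 CPM against 190, 174, 162 and 78.3 CPM in T cells without Foxp3. The latter list was thus higher in ILC2 than in those T cells in both cold libraries. The B cell list, with all 10 genes detected and Cd74 the most abundant, summed to 2245, 1670, 1485 and 1790 CPM in ILC2 against 44575 to 57757 CPM in B cells. The 5 regulatory T cell genes, Ikzf2 the most abundant, summed to 106, 72.8, 40.0 and 58.6 CPM against 4230 to 4481 CPM in Foxp3 T cells. Macrophage genes (8 of 8 detected, Apoe the most abundant) summed to 66.8, 44.1, 82.3 and 37.9 CPM, and 7 of 8 mast cell and basophil genes were at 0. The B cell and regulatory T cell sums were both highest in 30C_1.

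Cells near the edge of the rule were alike in Ccr10 unless they had been left out for Cd3e or Cd3d. Ccr10 was found in 82.6% of the 144 ILC2 with 1 Gata3 UMI and in 81.7% of the 360 with more. Just outside, it was found in 80.0% of 125 cells with a marker gene and no Gata3, in 81.8% of 148 cells with Gata3 and none of the 4 marker genes, and in 41.6% of 219 cells left out only for Cd3e or Cd3d. The last of these had Cd28 in 53.0% and Trac in 74.9%. Id2, Rora, Il7r and Cxcr6 were also common there, in 83.6%, 72.1%, 89.5% and 70.8%, so they set ILC2 apart less than Ccr10 did.

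ILC2 made up 2.12% (95% Clopper-Pearson interval 1.75 to 2.55), 2.13% (1.77 to 2.56), 3.23% (2.77 to 3.74) and 2.00% (1.64 to 2.41) of cells kept in 30C_1, 30C_2, 4C_1 and 4C_2. Library 4C_1 was high and 4C_2 was lowest, so the temperatures overlapped. The mean share was 2.13% in the 30 °C libraries and 2.62% in the cold ones, which is 0.489 percentage points apart (two-sided exact permutation test, p = 1). With 2 libraries against 2 the smallest p that test allows is 0.333. The intervals cover counting error only, and the number of cells loaded was equalised, so shares say nothing of the number in the tissue. Without 4C_1 the difference was -0.125 points, and with cells chosen by Il17rb or Il1rl1 alone it was -0.231.

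Within ILC2, Gsto1, Txnip, Klf9, Fkbp5, Tsc22d3 and the receptor Ltb4r1 were lower after the cold challenge, and Tnf, Dynll1 and Lgals1 were higher. Of 6782 genes tested, 330 passed an adjusted p of 0.05 (4.87%), 152 of them higher at 4 °C (2.24%) and 178 lower (2.62%). The test was edgeR's quasi-likelihood test on UMIs summed per library, with Benjamini-Hochberg adjustment over all 6782 genes, and every adjusted p below comes from it unless another tool is named. A gene entered with enough UMIs in as many libraries as a temperature held. Among called genes given with counts below, Vipr2, Ramp3, Chdh, Pcyt1a, Ctla4 and Lef1 entered through 30 °C alone, and Bcl2l1, like Tbx21, through 4 °C alone. Their changes are a description. Metrnl, Egr3, Nab2, Cep170 and Iglc2 had enough UMIs in a single library of the temperature where they were low. The 330 genes also had both 4 °C libraries on one side of both 30 °C libraries, as did 3275 genes in all, or 48.3%. The median log2 fold change over all genes was -0.0026. The calls did not hold without 4C_1 or without 4C_2, which leaves a lone cold library. Signs of the called genes could hardly change there, since none of the 330 overlapped between temperatures. With cells chosen by Il17rb or Il1rl1 alone 327 genes were called, of which 252 were among the 330, and DESeq2 called 144.

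Among called genes with at least 100 UMIs over the 4 libraries, the largest rises included those of Egr3 and Nab2. Egr3, a zinc-finger factor induced by antigen receptor and cytokine signals, stood at 3.71 and 23.9 CPM in 30C_1 and 30C_2 and at 85.2 and 47.1 CPM in 4C_1 and 4C_2. Its log2 fold change was 2.24 (SE 0.43, adjusted p = 0.00625), 1.45 without 30C_1 and 4.14 without 30C_2, so its size rests on those libraries. Nab2, which binds and represses Egr proteins, stood at 16.1, 9.54, 37.8 and 35.6 CPM and rose by 1.47 (SE 0.31, adjusted p = 0.0123). It lost the call without 30C_2 (1.16, adjusted p = 0.0595) and with Gata3 not required (0.83, adjusted p = 0.376). Egr3 was detected in 2.73% and 7.83% of ILC2 at 30 °C and in 20.9% and 18.7% at 4 °C.

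Tnf, the inflammatory cytokine, was uniform within each temperature, at 153 and 159 CPM against 398 and 412 CPM. It rose by 1.31 on the log2 scale (SE 0.11, adjusted p = 2.00e-06), and the share of ILC2 with a Tnf UMI went from 40.9% and 41.7% to 77.3% and 71.0%. Dynll1, the dynein light chain, stood at 129, 147, 373 and 401 CPM and rose by 1.43 (SE 0.12, adjusted p = 2.00e-06). Slc2a3, a glucose transporter, stood at 16.1, 15.5, 45.2 and 46.0 CPM and rose by 1.46 (SE 0.27, adjusted p = 0.00509). It was not called with cells chosen by Il17rb or Il1rl1 alone (1.11, adjusted p = 0.0539), with Gata3 not required (adjusted p = 0.233) or with Cd3g and Trac at 0 (adjusted p = 0.149). In thinned cells Tnf was found in 40.5%, 47.8%, 71.1% and 73.8% of ILC2 with an Il13 UMI and in 24.6%, 22.6%, 61.3% and 44.4% of those without. Since Il13 chose cells, these shares are a description. With Cd3g and Trac also at 0 the value for Tnf was 0.95 and not called (adjusted p = 0.254). In all 3 genes the spread within a temperature was far smaller than the gap between temperatures.

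The other rises among the 10 largest of called genes with at least 100 UMIs were of genes with varied roles. Lxn, a carboxypeptidase inhibitor, stood at 16.1, 17.9, 46.7 and 48.3 CPM (log2 fold change 1.41), and Myadm, a membrane protein, at 28.4, 25.0, 70.4 and 75.9 CPM (1.38). Fam189b stood at 16.1, 25.0, 63.0 and 46.0 CPM (1.37), and Gm14718, an antisense gene, at 37.1, 46.5, 127 and 93.1 CPM (1.36). Their adjusted p values ran from 0.000916 for Gm14718 to 0.00888 for Fam189b. Cep170, a centrosomal protein, stood at 21.0, 7.16, 38.5 and 33.3 CPM and had a log2 fold change of 1.32 (SE 0.36, adjusted p = 0.0450). Its value was 2.24 without 30C_1 and, at an adjusted p of 0.307, 0.75 without 30C_2.

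**Figure D2:**
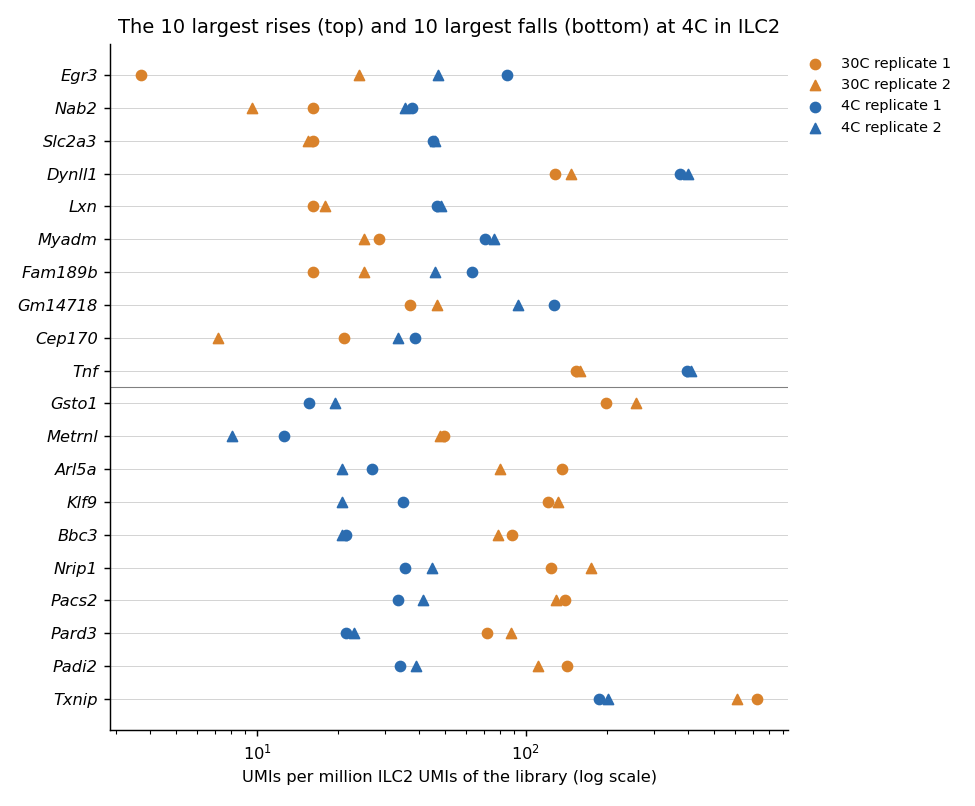
Points give CPM in each of the 4 libraries on a log axis for the 10 largest rises and 10 largest falls among called genes of at least 100 UMIs, coloured by temperature. In each gene both libraries of one temperature lie on one side of both of the other; Egr3 and Cep170 have the widest spread between the 30 °C libraries.

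The deepest fall was of Gsto1, glutathione S-transferase omega, at chr19:47854970-47864790 on the plus strand. It stood at 198 and 258 CPM in the 30 °C libraries and fell to 15.6 and 19.5 CPM in the cold ones (log2 fold change -3.78, SE 0.22, adjusted p = 4.49e-08). A Gsto1 UMI was found in 54.5% and 60.0% of ILC2 at 30 °C and in 11.0% and 11.2% at 4 °C. In B cells it was found in 7.28%, at a median of 7800.5 UMIs against 7216.5 in ILC2. No other gene among the 10 largest falls of genes with at least 100 UMIs changed by as much.

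Metrnl, a secreted factor that adipose and muscle tissue release in cold and exercise, stood at 49.5 and 47.7 CPM against 12.6 and 8.05 CPM (log2 fold change -2.22, SE 0.29, adjusted p = 0.000219). Txnip, the thioredoxin-interacting protein that limits glucose uptake, stood at 725, 609, 187 and 202 CPM and fell by 1.84 (SE 0.11, adjusted p = 4.49e-08). Nrip1, a nuclear receptor corepressor, stood at 124, 174, 35.6 and 44.8 CPM (-1.98), and Bbc3, the pro-apoptotic protein PUMA, at 89.1, 78.7, 21.5 and 20.7 CPM (-2.04). In these 4 genes both cold libraries were low and close to each other, well apart from both 30 °C libraries.

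The remaining large falls were of Klf9 (log2 fold change -2.17), Arl5a, a small GTPase (-2.20), Pacs2, a sorting protein (-1.93), Pard3, a polarity protein (-1.91), and Padi2, a peptidylarginine deiminase (-1.86). Arl5a was the least even at 30 °C, with 136 and 79.9 CPM against 26.7 and 20.7 CPM. Padi2 stood at 142 and 111 CPM against 34.1 and 39.1 CPM, and the 30 °C libraries were as near to each other in Klf9, Pacs2 and Pard3. Over the 20 genes of both sets and 15 alternative analyses, 287 fold changes with an adjusted p were obtained and each had the direction of the main value. These genes were chosen for large changes without overlap in the same data, so that agreement was largely set by the choice.

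Of the tested genes that glucocorticoids induce, 8 fell, 2 rose and 10 were not called. The glucocorticoid receptor is a hormone-bound transcription factor, and its targets Fkbp5 and Tsc22d3 are common readouts of it. The list held 25 genes, of which 20 had enough UMIs to test, with a median log2 fold change of -0.55 against -0.0026 over all genes and shares of 2.62% lower and 2.24% higher. The median was -0.31 without 30C_1. No member was called higher in DESeq2 (8 lower of 13 tested) or with cells chosen by Il17rb or Il1rl1 alone (10 lower of 20). The same held with Gata3 not required (9 lower of 16) and with Cd3g and Trac at 0 (4 lower of 14). With a replicate block 3 were higher and 10 lower of 20, and in thinned cells 1 was higher and 8 lower of 19. The numbers of rises and falls thus depend on the analysis. The list was drawn up with earlier results of these data known.

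Fkbp5, a co-chaperone of the receptor, stood at 315, 316, 109.7 and 80.5 CPM and fell by 1.75 on the log2 scale (SE 0.13, adjusted p = 8.20e-07). Tsc22d3, the glucocorticoid-induced leucine zipper, stood at 328, 304, 103 and 93.1 CPM and fell by 1.73 (SE 0.12, adjusted p = 3.25e-07). Klf9, a zinc-finger factor, stood at 121, 131, 34.8 and 20.7 CPM and fell by 2.17 (SE 0.21, adjusted p = 8.57e-06). All 3 were close to equal in the 30 °C libraries and low in both cold ones, and Fkbp5 was detected in 79.1%, 88.7%, 54.1% and 47.7% of ILC2.

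Of the other members, Ddit4, Txnip and Pik3ip1 fell by as much and are described with the next list. Cxcr4, the CXCL12 receptor, stood at 156, 115, 80.0 and 79.3 CPM (log2 fold change -0.82, adjusted p = 0.00770). The risers were Zfp36, an RNA-decay factor (0.32, adjusted p = 0.0340), and Rgs2, a brake on G protein signalling (0.55, adjusted p = 0.0155). The clock gene Per1 (-0.84, adjusted p = 0.0654) and the phosphatase Dusp1 (-0.35, adjusted p = 0.0665) did not pass. Nr3c1, which encodes the receptor itself, stood at 182, 187, 167 and 168 CPM (-0.20, adjusted p = 0.415).

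The list of FOXO targets and restraints on mTOR overlaps with that one, since Ddit4, Txnip, Pik3ip1 and Irs2, among others, stand in both. Of 19 of its 25 genes that were tested, 5 fell and none rose, and the median was -0.44, beside 2.62% of all genes lower and 2.24% higher. Ddit4, an inhibitor of mTOR, stood at 184, 155, 46.0 and 56.3 CPM and fell by 1.81 (SE 0.16, adjusted p = 4.85e-06). Pik3ip1, an inhibitor of PI3 kinase, stood at 79.2, 116, 28.2 and 32.2 CPM and fell by 1.77 (SE 0.23, adjusted p = 0.000219). Irs2, an insulin receptor substrate, stood at 135, 120.5, 66.0 and 79.3 CPM (-0.89, adjusted p = 0.00371), and Klf2, which sustains the recirculation of lymphocytes, at 437, 416, 341 and 312 CPM (-0.44, adjusted p = 0.0137).

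**Figure D3:**
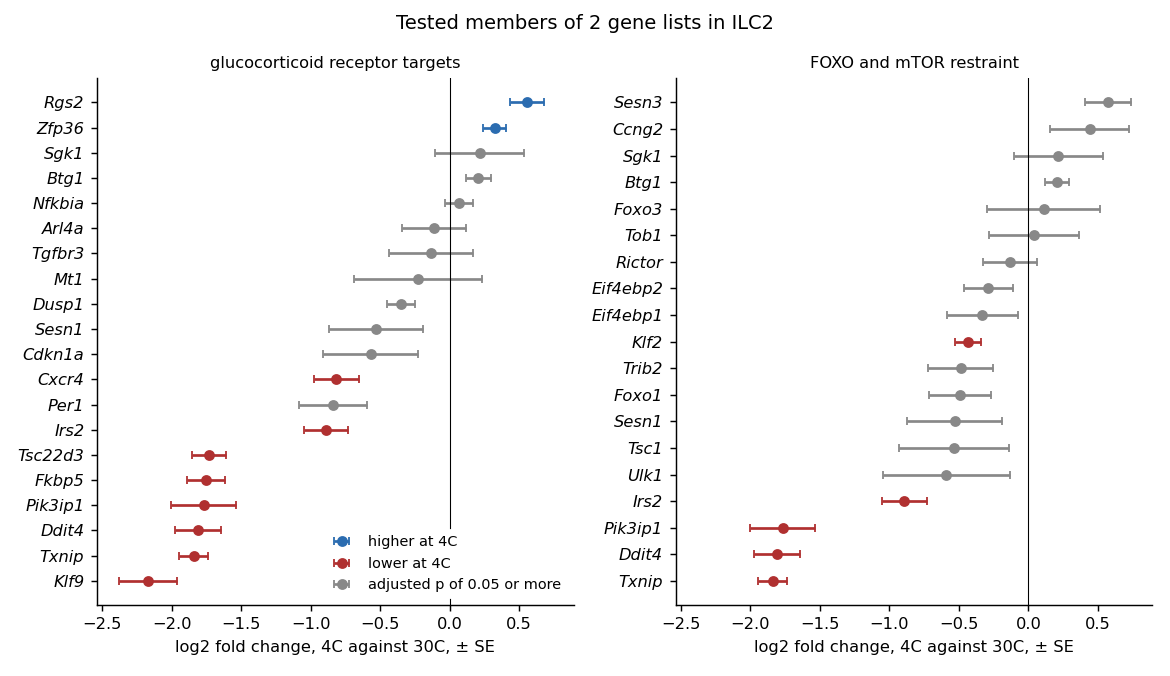
Points give the log2 fold change, 4 °C against 30 °C, with its SE for each tested gene of the glucocorticoid target list and of the FOXO and mTOR list, in blue (higher) or red (lower) where edgeR's adjusted p was under 0.05 and in grey elsewhere. Of 20 glucocorticoid targets 8 fell and 2 rose, and of 19 FOXO and mTOR genes 5 fell and none rose.

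Of 26 receptors for neuropeptides, lipids and hormones 11 were tested, of which 4 were lower and 1 higher, with a median of -0.17, where 2.62% of all genes were lower and 2.24% higher. Vipr2, the receptor for vasoactive intestinal peptide on ILC2, stood at 45.8, 40.6, 8.15 and 8.05 CPM and fell by 2.45 (SE 0.31, adjusted p = 0.000146), which rests on 37, 34, 11 and 7 UMIs. Ltb4r1, the leukotriene B4 receptor, stood at 573, 509, 175 and 152 CPM and fell by 1.77 (SE 0.11, adjusted p = 6.59e-08). Both cold libraries were far below both others in each gene.

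Ramp1 and Ramp3 are partner chains that set the ligand of the CGRP and adrenomedullin receptors. Ramp1 stood at 113, 125, 51.9 and 64.4 CPM (log2 fold change -1.12, adjusted p = 0.00107) and Ramp3 at 29.7, 44.1, 8.89 and 6.90 CPM (-2.23, a description as for Vipr2). Their partner Calcrl had 9, 11, 17 and 19 UMIs and did not pass (0.37, adjusted p = 0.711). Ptger4, a receptor for prostaglandin E2, was the member that rose, at 81.6, 63.2, 123 and 139 CPM (0.79, adjusted p = 0.0108). The neuromedin U receptor Nmur1 had 1, 4, 1 and 0 UMIs, too few to test, and the acetylcholine receptors Chrna7, Chrna9 and Chrm3 had none.

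Cytokines other than those of the rule rose in part. Of 25 effector genes 10 were tested, 3 rose and none fell, and the median was 0.45 (all genes: 2.24% higher). Besides Tnf these were Il2, a lymphocyte growth factor (235, 234, 328 and 343 CPM, log2 fold change 0.46, adjusted p = 0.0178), and Tnfsf14, or LIGHT (75.5, 91.8, 137 and 177 CPM, 0.82, adjusted p = 0.0109). Il4 stood at 54.4, 51.3, 68.2 and 97.7 CPM and did not pass (0.55, adjusted p = 0.189). Csf2 was uneven, at 113, 28.6, 69.7 and 49.4 CPM, and overlapped between temperatures. Il9 and Il3 had no UMI in these 504 cells.

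Areg encodes amphiregulin, an EGF-family growth factor through which ILC2 act on epithelial and stromal cells, and lies at chr5:91139599-91148432 on the plus strand. It stood at 266, 153, 205 and 369 CPM, from 215, 128, 277 and 321 UMIs, so that 30C_1 lay above 4C_1 and the temperatures overlapped. The log2 fold change was 0.36 (SE 0.24, adjusted p = 0.474). An Areg UMI was found in 22.7%, 23.5%, 30.8% and 41.1% of ILC2, and in 22.3%, 21.2%, 29.6% and 32.4% once each cell had been thinned to 5462 UMIs. Both shares gave p = 0.333 in the two-sided exact permutation test, the smallest it allows.

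A few cells carried most Areg, and the top 10% of ILC2 held 86.0%, 85.2%, 72.6% and 69.8% of its UMIs. The corresponding shares for Il13 were 65.1%, 48.4%, 38.8% and 39.9%. Without 30C_1 Areg was higher at 4 °C by 0.78 (adjusted p = 0.000120), and without 4C_2 it was at -0.08, so the direction depends on single libraries. In thinned cells Areg was found in 32.4%, 28.3%, 35.2% and 35.7% of ILC2 with an Il13 UMI and in 15.8%, 15.1%, 6.45% and 16.7% of those without. Since Il13 chose cells, those shares are a description. Of 79 cells with stromal genes and no lymphocyte genes none had an Areg UMI, at a median of 10765 UMIs a cell against 7216.5 in ILC2. This allows up to 3.80% of such cells to have a detected UMI and sets no limit on the share that express the gene.

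Chat was lower at 4 °C in ILC2, though several analyses did not call it. The gene lies at chr14:32408203-32465989 on the minus strand and had 73, 99, 93 and 59 UMIs, or 90.3, 118, 68.9 and 67.8 CPM. Both cold libraries were below both others, and the log2 fold change was -0.67 (SE 0.18, adjusted p = 0.0447). It was not called by DESeq2 (adjusted p = 0.231) or in thinned cells (adjusted p = 0.0900), where the fold change was about as large. In cells chosen by Il17rb or Il1rl1 alone it was smaller and not called (-0.43, adjusted p = 0.294). Nor was it called without 30C_2 (-0.44), 4C_1 or 4C_2.

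The share of ILC2 with a Chat UMI was 39.1%, 48.7%, 32.0% and 40.2%, with 4C_2 above 30C_1 (two-sided exact permutation test, p = 0.667). Thinned to 5462 UMIs a cell, the shares were 34.0%, 39.4%, 26.4% and 28.4% and no longer overlapped (exact permutation p = 0.333). Over all libraries 197 of 504 ILC2 had a Chat UMI (39.1%), against 38.2% of T cells without Foxp3, 46.7% of Foxp3 T cells and 32.9% of B cells, at medians of 7216.5, 6284, 5508 and 7800.5 UMIs. Of the 79 stromal gene cells none had one, which allows up to 3.80% with a detected UMI and sets no limit on the share that express Chat. Most ILC2 sorted on the reporter thus had no Chat UMI, as was the case for T and B cells.

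Of the 14 genes for acetylcholine and choline handling 8 were tested, of which 3, Chat, Chdh and Pcyt1a, fell, 5 were not called and the median was -0.44 (all genes: 2.62% lower). Chdh, which oxidises choline, stood at 24.7, 23.9, 8.89 and 10.3 CPM (log2 fold change -1.40). Pcyt1a, which draws choline into phosphatidylcholine, stood at 24.7, 29.8, 7.41 and 8.05 CPM (-1.87). Chdh and Pcyt1a had enough UMIs for the test only through the 30 °C libraries, so their falls are a description. The vesicular transporter Slc18a3 had 7, 4, 12 and 8 UMIs and was not tested. The choline transporter Slc5a7 had none and the esterase Ache 0, 2, 0 and 0.

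**Figure D4:**
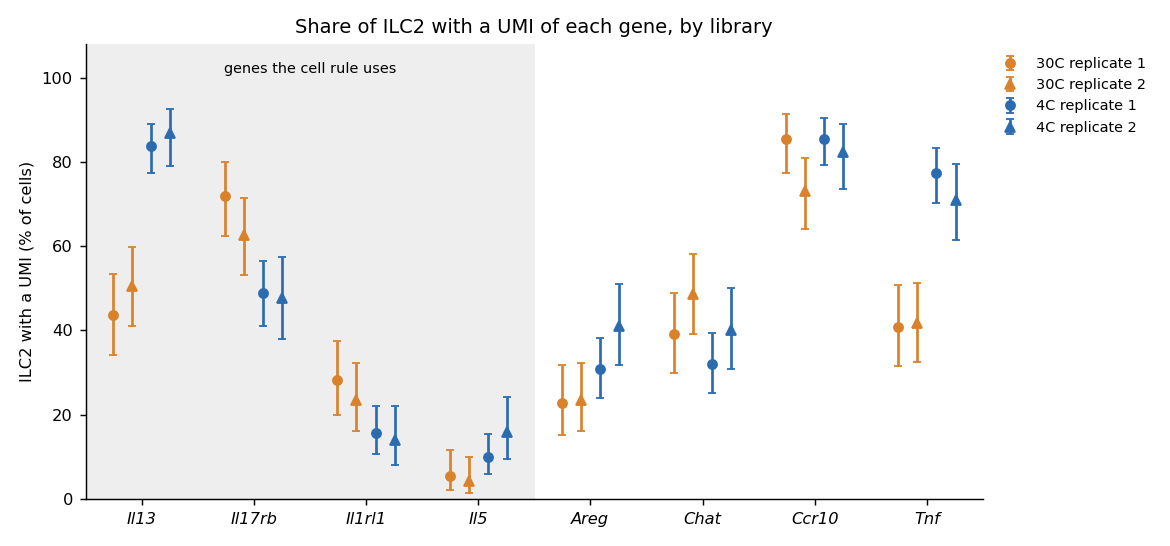
Points give the percentage of ILC2 with at least 1 UMI of each of 8 genes in each library, with 95% Clopper-Pearson intervals that cover counting error only, and shading marks the 4 genes of the cell rule. Tnf goes from 40.9% and 41.7% at 30 °C to 77.3% and 71.0% at 4 °C, whereas Chat and Ccr10 overlap between temperatures.

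ILC2 with and without a Chat UMI differed in few genes. With cells thinned to 5462 UMIs, 32, 39, 42 and 29 ILC2 had one and 62, 60, 117 and 73 had none. Of 3325 genes tested within libraries 6 passed (0.18%), while 203 had an unadjusted p under 0.05 and DESeq2 called none. Higher in ILC2 with Chat were Serpina3g, a protease inhibitor (log2 fold change 0.71, adjusted p = 0.0165), Ltb, a lymphotoxin (0.41, adjusted p = 0.0144), and Btg1, an anti-proliferative factor (0.28, adjusted p = 0.0463). Lower were Fos (-0.60, adjusted p = 0.0255), Stmn1, which destabilises microtubules (-1.48, adjusted p = 0.0463), and Lgals3, a galectin (-1.52, adjusted p = 0.0144). Leaving out one library at a time gave 0 to 7 calls, with 0 without 30C_2 and 2 without 4C_1.

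Of 17 tested alarmin and cytokine receptor genes outside the rule, 2 fell and 1 rose (median -0.19; all genes: 2.62% and 2.24%). Ifngr1, the receptor for interferon-gamma, which restrains ILC2, stood at 349, 304, 109 and 110.4 CPM and fell by 1.63 (SE 0.12, adjusted p = 5.37e-07). Il7r stood at 1587, 1634, 1239 and 1213 CPM (log2 fold change -0.45, adjusted p = 0.000988) and Il2rg, the common gamma chain, at 324, 289.8, 393 and 455 CPM (0.40, adjusted p = 0.0447). The TSLP receptor Crlf2 did not differ past the threshold (-0.04, adjusted p = 0.940).

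Of 24 tested genes in the list of ILC2 transcription factors 2 fell and none rose (median 0.03; all genes: 2.62% and 2.24%). These were Rora, at 442, 505, 400.2 and 354 CPM (log2 fold change -0.38, adjusted p = 0.0486), and Ikzf3, or Aiolos, at 190.5, 236, 145 and 129 CPM (-0.69, adjusted p = 0.00775). Tbx21, the factor of type 1 lymphocytes and a member of the ILC1 and NK list, had 1 and 1 UMIs at 30 °C and 16 and 15 at 4 °C. It had enough UMIs for the test only through the 4 °C libraries, so these counts, too low at 30 °C for a fold change, are a description. Ccr10 stood at 367, 314, 451 and 400.2 CPM and did not pass (0.27, adjusted p = 0.164). Surface genes that rose included Cxcr6, at 287, 295, 476 and 466 CPM (0.64, adjusted p = 0.000717), and Thy1, at 205, 181, 351 and 291 CPM (0.69, adjusted p = 0.00278). Of 15 tested genes of the ILC2 marker list outside the rule, 2 rose and 2 fell, where 2.24% of all genes were higher and 2.62% lower.

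Among adhesion and homing genes 4 of 23 tested rose and 2 fell, against 2.24% and 2.62% of all genes. The median was 0.17, or 0.11 without 30C_1 and 0.08 without 4C_2. The risers besides Cxcr6 were the integrins Itgae (log2 fold change 0.40, adjusted p = 0.0450) and Itgb1 (0.53, adjusted p = 0.0385) and the hyaluronan receptor Cd44 (0.59, adjusted p = 0.00943). Of 13 tested checkpoint genes 2 rose and 1 fell. Lgals1, galectin-1, stood at 1095, 1255, 2424 and 2389 CPM and rose by 0.98 (SE 0.08, adjusted p = 1.51e-06), and Cd160 stood at 14.8, 20.3, 43.0 and 39.1 CPM (1.17, adjusted p = 0.0248). Ctla4, which regulatory T cells also express, stood at 47.0, 19.1, 5.93 and 8.05 CPM (-2.31). It had enough UMIs for the test only through the 30 °C libraries, so its fall is a description. Regulatory T cell sums were 106, 72.8, 40.0 and 58.6 CPM, and the part of such cells in the fall of Ctla4 was not tested.

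Of 19 tested survival genes 5 were lower and 2 higher (median -0.03), against 2.62% and 2.24% of all genes. The anti-apoptotic Bcl2 stood at 192, 192, 91.2 and 115 CPM (log2 fold change -0.98, adjusted p = 0.000585), and its relative Bcl2l1 at 9.90, 9.54, 25.2 and 28.7 CPM (1.39, adjusted p = 0.0356). The pro-apoptotic Bcl2l11, or BIM, stood at 54.4, 47.7, 17.8 and 19.5 CPM (-1.52, adjusted p = 0.00183) and fell along with Bbc3. Of 19 tested NF-kB genes 3 fell and none rose, with a median of 0.07 that was 0.14 without 30C_1 and -0.02 without 30C_2. The 3 were Nfkb1 at 440.4, 421, 274 and 302 CPM (-0.64, adjusted p = 0.000967), Tnfaip3 (-0.52, adjusted p = 0.00717) and Birc3 (-0.96), which also stands in the survival list.

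Immediate early genes did not rise together in ILC2. Of 26 tested 3 rose (Egr3, Jund and Zfp36), 2 fell (Zfp36l2 and Klf2) and the median was 0.17, beside 2.24% of all genes higher and 2.62% lower. Jund stood at 703, 753, 1146 and 1218 CPM (log2 fold change 0.64, adjusted p = 0.000136), and Zfp36l2, an RNA-decay factor, at 1273, 1258, 839 and 808 CPM (-0.68, adjusted p = 2.40e-05). Of 18 tested genes of the beta-adrenergic and cAMP response, 2 rose (Rgs2 and Grk2) and 2 fell (Sik1 and Gpr65), with a median of 0.06. None of 24 tested interferon-stimulated genes passed (median 0.15).

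Genes of heat shock and cold gave 1 rise and 2 falls of 16 tested (all genes: 2.24% higher and 2.62% lower), and both falls were of RNA-binding proteins known for induction by mild cold. Cirbp stood at 343, 287, 158 and 141 CPM and fell by 1.12 (adjusted p = 2.28e-05), and Rbm3 stood at 1306, 1359, 1124 and 1033 CPM (log2 fold change -0.36, adjusted p = 0.00971). The riser was the chaperone Dnaja1 (0.50, adjusted p = 0.0186). In both falling genes each cold library was below each 30 °C library. The clock list gave 1 higher (Hlf) and 1 lower (Rora) of 15.

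Metabolic lists are given beside 4.87% of all genes called. Of 15 tested glycolysis genes 2 (13.3%) rose, the transporter Slc2a3 and Pgam1 (log2 fold change 0.62, adjusted p = 0.0486), with a median of 0.00. Of 16 tested lipid genes 4 (25%) were called and 3 rose: Plin3, a lipid droplet coat protein (24.7, 28.6, 74.1 and 57.5 CPM, 1.27, adjusted p = 0.00525), Abcg1, a cholesterol exporter (1.27, adjusted p = 0.0329), and Scd2, a desaturase (1.62, adjusted p = 0.0450). Cpt1a, which admits fatty acids to mitochondria, fell by 1.12 (adjusted p = 0.0447). Of 23 cell cycle genes only Ccnd3 passed (-0.58), none of 4 metallothionein and zinc genes did, and of 76 ribosomal protein genes 7 fell and none rose (median -0.15), where 2.62% of all genes were lower.

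Of the B cell list 5 genes were tested, and 1, the immunoglobulin gene Ighm, was lower at 4 °C, where 2.62% of all genes were. Ighm stood at 161, 103, 62.3 and 82.8 CPM (log2 fold change -0.95, adjusted p = 0.0121). Other immunoglobulin genes, which ILC2 do not make, were looked at after their values had been seen: Igha stood at 122, 106, 38.5 and 88.5 CPM (adjusted p = 0.0398) and Iglc2 at 73.0, 66.8, 11.1 and 48.3 CPM (-1.47, adjusted p = 0.0396). The B cell list summed to 2245, 1670, 1485 and 1790 CPM, which overlapped between temperatures. Of 8 tested genes of the T cell list 1, Lef1, fell (23.5, 19.1, 5.19 and 6.90 CPM) and 7 were not called, Cd3g, Trbc1, Trbc2 and Trac among them (log2 fold changes 0.31, 0.22, 0.29 and 0.19). With ILC2 held to cells without Cd3g and Trac, which left 17, 32, 38 and 20 cells, 42 genes were called, and 244 of the 249 called genes that could be fitted kept their sign. Bbc3, Gm14718, Klf9, Myadm, Slc2a3 and Tnf were among those no longer called.

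Whether ILC2 differed from other eGFP+ lymphocytes in their response was asked of the difference itself, as a cell type by temperature term in a model that also held each library. Against 2689 T cells without Foxp3 it was called in 112 of 9995 genes (1.12%), 76 more positive in ILC2 and 36 more negative. Against 2261 Foxp3 T cells it was called in 67 of 9751 genes (0.687%), 25 more positive and 42 more negative, and against 7112 B cells in 190 of 11293 (1.68%), 94 and 96. Within those cells alone, 376 of 10357, 322 of 9958 and 890 of 11465 genes were called between temperatures. All 3 comparisons share the ILC2 sums. With 1 library left out the B cell count ran from 98 (without 4C_1) to 144 and was 111 without 30C_1, and the Foxp3 T cell count reached 102 without 30C_2.

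The fall of Gsto1 was deeper in ILC2 than in each of the others. Its log2 fold change was -3.78 in ILC2 against -1.32 in T cells without Foxp3, -0.82 in Foxp3 T cells and -0.45 in B cells, and the differences were -2.47, -2.98 and -3.33. Metrnl had log2 fold changes of 0.13, 0.23 and 0.59 in those cells and passed in none of them. Arl5a had -0.31, -0.48 and -0.08, and passed in Foxp3 T cells (adjusted p = 0.0128). The differences were -2.34, -2.45 and -2.88 for Metrnl and -1.91, -1.71 and -2.10 for Arl5a, called in each of the 3 comparisons.

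Chat fell in ILC2, rose in B cells and was not called in either kind of T cell. The difference in its cold effect was -0.82 (SE 0.19, adjusted p = 0.0195) against T cells without Foxp3, where Chat itself changed by 0.15, and -1.07 (adjusted p = 2.25e-06) against B cells, where it rose by 0.40 (adjusted p = 0.0361). Against Foxp3 T cells it was -0.70 and not called (adjusted p = 0.129). Areg rose in Foxp3 T cells by 1.97 (adjusted p = 1.45e-06; 61.5, 53.8, 232 and 237 CPM), and the difference for ILC2 was -1.60 (adjusted p = 3.61e-05). Its differences from T cells without Foxp3 (-0.54) and B cells (-0.57) were not called and turned with single libraries, to 0.13 and 0.85 without 4C_1.

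Rises of ILC2 were partly shared. For Dynll1 the log2 fold change was 1.00, 1.23 and 1.20 in T cells without Foxp3, Foxp3 T cells and B cells, and no difference from ILC2 was called (0.41, 0.21 and 0.24). Tnf rose more in ILC2 than in T cells without Foxp3 (difference 0.77, adjusted p = 0.004875) and B cells (0.70, adjusted p = 0.0133), while the difference from Foxp3 T cells was 0.31 (adjusted p = 0.719). Slc2a3 differed from T cells without Foxp3 (1.45, adjusted p = 0.0303) and B cells (1.60, adjusted p = 0.00165), and from Foxp3 T cells by 1.26 (adjusted p = 0.0587).

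Falls of glucocorticoid targets were seen in each cell type. In T cells without Foxp3 10 of 23 tested members fell and 1 rose, in Foxp3 T cells 10 and 2 of 23, and in B cells 9 and 0 of 22. Over all genes, 252 fell and 124 rose of 10357 in T cells without Foxp3, 180 and 142 of 9958 in Foxp3 T cells, and 503 and 387 of 11465 in B cells. The interaction was called for 1 member against T cells without Foxp3 (1.12% of all genes), for none against Foxp3 T cells (0.687%) and for 7 against B cells (1.68%), of which 4 were more positive in ILC2 and 3 more negative. Klf9 differed from B cells (-1.63, adjusted p = 1.12e-05) and not past the threshold from T cells without Foxp3 (-0.10) or Foxp3 T cells (-0.20). Txnip likewise differed from B cells (-0.81, adjusted p = 6.22e-10), with -0.30 and -0.40 against the T cells. Il7r fell less in ILC2 than in Foxp3 T cells, where it changed by -1.59 (difference 1.15, adjusted p = 1.07e-08).

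**Figure D5:**
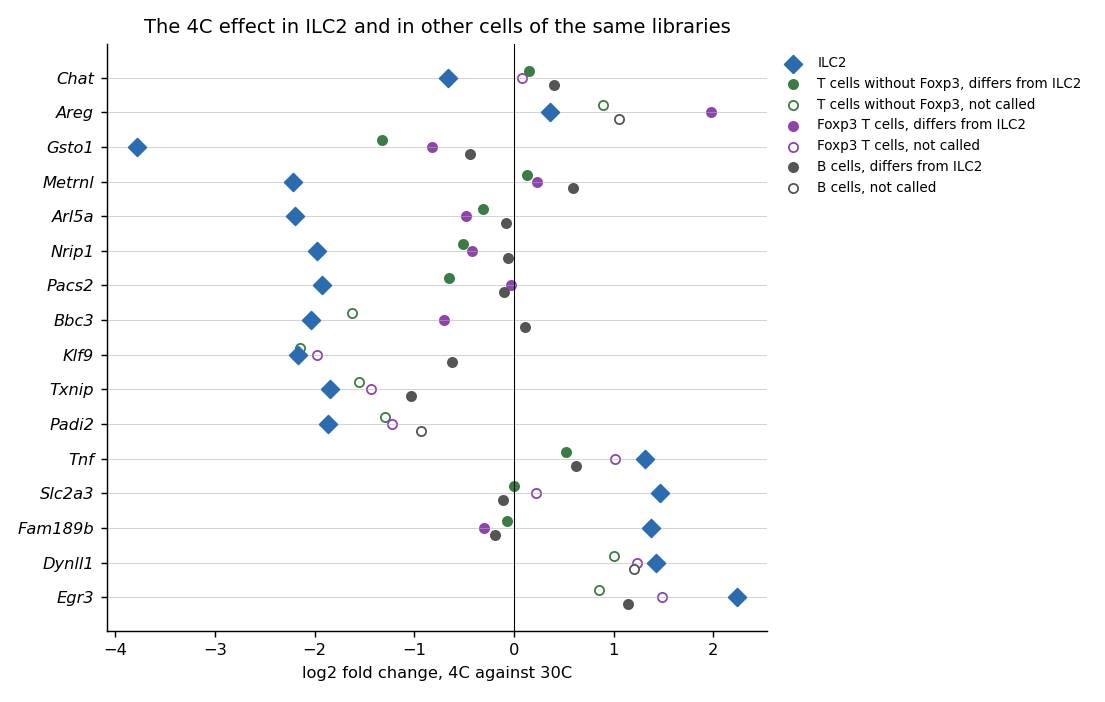
Points give the log2 fold change, 4 °C against 30 °C, of 16 genes in ILC2 and in T cells without Foxp3, Foxp3 T cells and B cells, filled where the interaction with ILC2 had an adjusted p under 0.05 and open where it did not. Gsto1, Metrnl and Arl5a are lowest in ILC2 and filled in all 3 other cell types, and Dynll1 is open in all 3.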

How the data were processed

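The authors aligned reads with STAR to mm10 (GRCm38) and called cells with Cell Ranger (3.0.0 per the file headers, 3.1.0 per the labels), and deposited raw UMI counts per gene and cell. No normalization had been applied. The files held 31053 genes and 26654 cells, with 76058112, 84317319, 80973104 and 84468931 UMIs in 30C_1, 30C_2, 4C_1 and 4C_2; of these 5190, 5388, 5326 and 5345 cells passed the filters on genes and mitochondrial UMIs.

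UMIs of ILC2 were summed per library and tested with edgeR 4.0.16 (TMM, filterByExpr, quasi-likelihood) under R 4.3.3, with DESeq2 1.42.0 as an alternative. The interaction model held library, cell type and cell type by temperature. Shares of cells were tested across libraries by exact permutation (scipy 1.17.1), also with cells thinned to 5462 UMIs, the 10th percentile of ILC2 depth. Doublets were scored with Scrublet (scanpy 1.11.5). T cells without Foxp3 had Cd3e and Cd3d, Foxp3 T cells Foxp3 and Cd3e or Cd3d, B cells Cd79a and Ms4a1, and stromal gene cells Col1a1, Col3a1 and Dcn, each without genes of the other types. Gene positions are from GENCODE M21.

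Named genes are the 10 largest called rises and falls of at least 100 UMIs with libraries that did not overlap, the 5 largest each way in each interaction and between Chat classes, and list members. Igha, Iglc2 and the genes whose promoters are shown were picked after their values were seen. The cell rule, members and lists were chosen with earlier results of these data known. Genes of the cell rule were given no test. On simulated data with ILC2 depths the main test recovered 93% of 2-fold and 100% of 4-fold changes, with 3.02% of its calls false. The simulation gave all genes the same dispersion (0.00301) and changed only genes above the median level. Its rates therefore need not hold for genes that are scarce or uneven between libraries. Each library pooled mice, so p values measure the spread between pools.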

Additional observations from a re-analysis of the deposited data

Results flagged for a closer look

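Each result here is a difference in the cold effect between ILC2 and another eGFP+ lymphocyte of the same libraries, on the log2 scale, that passed edgeR's interaction test (Benjamini-Hochberg adjustment). ILC2 enter all 3 comparisons, so the comparisons are not independent of one another.

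Some effects were more negative in ILC2. Against T cells without Foxp3 the differences were -2.47 for Gsto1, -2.34 for Metrnl, -2.00 for Tspan13, a tetraspanin, -1.91 for Arl5a, -1.79 for the proton channel Hvcn1 and -0.82 for Chat. Against Foxp3 T cells they were -2.98 for Gsto1, -2.45 for Metrnl, -1.87 for Pacs2, -1.72 for Tspan13, -1.71 for Arl5a and -1.60 for Areg, which rose in Foxp3 T cells and was not called in ILC2. Against B cells they were -3.33 for Gsto1, -2.88 for Metrnl, -2.25 for the chemokine Ccl5, -2.13 for Bbc3, -2.10 for Arl5a and -1.07 for Chat. Ccl5 rose by 2.23 in B cells and was not called in ILC2. In B cells it stood at 13.8, 16.5, 41.0 and 109.7 CPM in 30C_1, 30C_2, 4C_1 and 4C_2, with 4C_2 far above 4C_1. In ILC2, Tspan13 stood at 116, 104, 31.9 and 37.9 CPM and Hvcn1 at 109, 88.3, 42.2 and 37.9 CPM in 30C_1, 30C_2, 4C_1 and 4C_2.

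Other effects were more positive in ILC2, where Fam189b, Jaml, Cd7, Ms4a4b and Rgcc themselves rose. Against T cells without Foxp3 the difference was 2.19 for Trdv4, whose log2 fold change was 0.29 in ILC2 and -1.89 in those T cells. The difference was 2.01 for B3galt2, 1.58 for Apoe, 1.58 for Tdrkh and 1.57 for the gamma constant segment Tcrg-C4. In those T cells Trdv4 stood at 44.6, 61.1, 23.0 and 5.78 CPM in 30C_1, 30C_2, 4C_1 and 4C_2. B3galt2 stood at 5.72, 16.1, 4.91 and 1.11 CPM there and was not called (adjusted p = 0.108), so both were lowest in 4C_2. Against Foxp3 T cells the differences were 1.68 for Fam189b, 1.42 for the adhesion molecule Jaml, 1.15 for Il7r, 1.08 for Cd7 and 1.05 for Ms4a4b, which in ILC2 stood at 162, 197, 499.5 and 415 CPM. Against B cells they were 1.94 for Zfp36l2, 1.87 for Nav2, 1.81 for Fosl2, 1.73 for Fut8 and 1.63 for Rgcc.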

How the results depend on the processing

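With 2 libraries a temperature and 504 cells, genes of few UMIs and changes in shares could not be resolved. The 330 calls became 144 in DESeq2, which gave an adjusted p to 2572 genes, 549 with a replicate block, 42 with Cd3g and Trac also at 0 and 167 with Gata3 not required. Leaving out 1 library gave 0 (without either 4 °C library) to 381 calls; the cause was not tested. Deviations of same-numbered libraries had r = 0.0347 over 2433 genes. With 2 libraries a temperature this value cannot settle whether the replicate numbers pair the libraries. The block changed neither the call of Chat (-0.64) nor that of Areg (0.35), and the interactions and Chat classes already held library.

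The log2 fold change of Chat lost its call in DESeq2 (-0.66), in thinned cells (-0.60), with Gata3 not required (-0.63), with Il17rb or Il1rl1 alone (-0.43) and with Cd3g and Trac at 0 (-0.48), and ran from -0.87 to -0.44 with 1 library left out. That of Areg ran from -0.0825 (without 4C_2) to 0.79 and passed at 0.78 without 30C_1. The Areg difference from T cells without Foxp3 reversed to 0.09 without 30C_1 and 0.13 without 4C_1, and that from B cells to 0.49 and 0.85; with 1 library left out they ran from -1.17 to 0.13 and from -2.05 to 0.85. The ILC2 share difference ran from -0.125 to 1.10 points and was -0.231 points with Il17rb or Il1rl1 alone.

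Interaction calls with 1 library left out ran from 75 to 154 for T cells without Foxp3, 62 to 102 for Foxp3 T cells (102 without 30C_2) and 98 to 144 for B cells (111 without 30C_1 and 98 without 4C_1). With Gata3 not required they were 70 for T cells without Foxp3 and 96 for B cells. Calls between Chat classes ran from 0 to 7 and were 0 in DESeq2. Besides the cold effects of Chat and Areg in ILC2, 266 values of single genes kept direction and call, 56 lost the call, 3 gained it and 4 reversed. DESeq2 gave 7 of the 20 named genes no adjusted p.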

Other observations

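Some genes of the effector lists that were too sparse to test in ILC2 had the following UMIs in 30C_1, 30C_2, 4C_1 and 4C_2. Calca, which encodes the neuropeptide CGRP, had 5 and 12 at 30 °C and 0 and 0 at 4 °C. Il6 had 0, 6, 21 and 5, Ccl1, a chemokine, 5, 3, 3 and 22, and Lif 6, 8, 3 and 1. Il10 had 0, 2, 7 and 1. In Calca and Lif the temperatures did not overlap, as was so for 48.3% of all tested genes, whereas Il6, Ccl1 and Il10 rested mainly on 1 library each.

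Colony-stimulating factor 2 was uneven in another way. Csf2 stood at 113, 28.6, 69.7 and 49.4 CPM in ILC2, with 30C_1 highest, yet was found in 7.27% and 8.70% of cells at 30 °C and in 21.5% and 20.6% at 4 °C.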
